A study of Mus musculus with 4 samples.

Results

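The granzymes and perforin are the proteins that cytotoxic lymphocytes store in granules. The genes described here are Gzma, Gzmb, Gzmc, Gzmd, Gzme, Gzmf, Gzmg, Gzmk, Gzmm and Prf1, taken by their symbols from the gene list of the deposited matrices, and they are 10 of 32285 genes. Their UMIs (unique molecular identifiers, counts of captured transcripts) were read in mouse cells labelled lymph node, from 4 droplet libraries that count the 3′ ends of transcripts. The libraries belong to a study on making ovarian tumours sensitive to immune checkpoint blockade. One library came from mice given 2DG together with aPDL1, called the combination here, 1 from mice given 2DG alone, 1 from mice given aPDL1 alone, and 1 was labelled ctrl. 2DG is 2-Deoxy-D-glucose, a glucose analogue that interferes with glycolysis and with N-linked glycosylation, and aPDL1, a name commonly given to antibodies against the checkpoint ligand PD-L1, is used as labelled. Strain, age, dose, treatment time and the number of mice behind each library are not given in the sources used here, although the design names both young and aged animals.

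In the granule pathway, a cytotoxic cell docks to its target and releases perforin, which forms pores in the membrane, and granzymes, serine proteases that pass through those pores and cleave proteins of the target cell. Prf1 encodes perforin. Gzmb encodes granzyme B, which cuts after aspartate and activates caspases, and Gzma encodes granzyme A, a protease that cuts after basic residues. Gzmk encodes a second protease of that kind, typical of memory-like and exhausted-lineage CD8 T cells. Gzmc to Gzmg are rodent genes next to Gzmb, known from strongly activated T cells and from NK cells of some tissues, and Gzmm encodes granzyme M, best known in NK and other innate-like lymphocytes.

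Each group was 1 library, so no spread within a group can be measured. No test was made between libraries, and no difference below has a replicate check. The intervals are 95% intervals, exact Poisson for levels, exact Clopper-Pearson for shares and exact binomial for ratios, and they cover counting error only. The libraries held 65369018 UMIs for the combination, 61859753 for 2DG, 62823127 for aPDL1 and 73885214 for ctrl. After filters 8554, 7390, 8338 and 8389 cells were used in the same order. Any pair of libraries shared 22 to 30 cell barcodes. Of 5 genes listed as markers of lymph node stroma, the chemokine genes Ccl19 and Ccl21a and the addressin gene Madcam1 had at most 3 UMIs in any library. The other two, which macrophages (Pdpn) and B cells (Cr2) also express, were found, Pdpn with 3676, 2630, 3229 and 7263 UMIs and Cr2 with 253, 113, 197 and 77 in the same order, so the whole list summed to 70.0, 51.2, 63.2 and 111 CPM (UMIs per 1000000). Markers of resident peritoneal macrophages (Gata6, Timd4, Icam2, Prg4) summed to 45.5 CPM in the combination, 18.6 with 2DG, 19.4 with aPDL1 and 8.97 in ctrl, and 5 epithelial or tumour markers (Epcam, Krt8, Krt18, Wt1, Msln) to 13, 6.25, 5.36 and 3.67 CPM.

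The composition of the ctrl library stood apart, and this touches every level taken over whole libraries. CD8 T cells, gated on Cd3 and Cd8 UMIs without Cd4, numbered 1652 in the combination (19.3% of cells), 1327 with 2DG (18%), 1564 with aPDL1 (18.8%) and 118 in ctrl (1.41%). Cells gated on the NK markers Ncr1 and Klrb1c, which do not part NK cells from type 1 innate lymphoid cells, numbered 388 (4.54%), 248 (3.36%), 286 (3.43%) and 23 (0.274%). The CD8 T gate did not use Ncr1 or Klrb1c, which summed to 1.19, 3.8, 2.85 and 2.25 CPM in CD8 T cells. Their level in NK-gated cells is set by the gate and is no check of it. All ctrl values in lymphocytes rest on few cells. The heat shock genes Hspa1a and Hspa1b summed to 18.7 CPM in the CD8 T cells of the combination, 303 with 2DG, 130 with aPDL1 and 804 in ctrl, and to 43.9, 208, 114 and 565 CPM in the NK-gated cells. Their part in the results below was not tested.

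Of the 10 genes, 6 lie in 1 block on chromosome 14, and their promoters are shown because the genes from Gzmc to Gzmg were found in overlapping small sets of cells. By GENCODE M21 on mm10 the block runs from position 56117626 to 56262260, over 144635 bases, in the order Gzme, Gzmd, Gzmg, Gzmf, Gzmc and Gzmb, all on the minus strand, with the further granzyme gene Gzmn between Gzmg and Gzmf. Gzma (113093825 to 113100981) and Gzmk (113171608 to 113225908) are on the minus strand of chromosome 13, and Prf1 (61297833 to 61304680) and Gzmm (79689020 to 79695261) are on the plus strand of chromosome 10. The windows below cover 150 bases from position -170 to -21 of the RefSeq gene start, build GRCm38.p6, at chr14:56262355-56262504 for Gzmb, chr14:56234678-56234827 for Gzmc, chr14:56132614-56132763 for Gzmd, chr14:56120646-56120795 for Gzme, chr14:56211428-56211577 for Gzmf and chr14:56159600-56159749 for Gzmg. They are read from the minus strand, and capitals mark matches to the RUNX motif TGTGGT or the AP-1 motif TGANTCA.
Gzmb: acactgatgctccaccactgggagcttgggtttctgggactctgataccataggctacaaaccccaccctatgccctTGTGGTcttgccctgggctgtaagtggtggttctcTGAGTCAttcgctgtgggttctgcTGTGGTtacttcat
Gzmc: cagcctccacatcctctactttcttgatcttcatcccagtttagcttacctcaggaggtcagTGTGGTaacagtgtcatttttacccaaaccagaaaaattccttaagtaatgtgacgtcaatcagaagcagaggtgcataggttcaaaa
Gzmd: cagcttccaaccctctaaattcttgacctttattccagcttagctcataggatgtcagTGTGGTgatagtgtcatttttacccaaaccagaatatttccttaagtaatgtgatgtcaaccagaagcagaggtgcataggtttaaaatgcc
Gzme: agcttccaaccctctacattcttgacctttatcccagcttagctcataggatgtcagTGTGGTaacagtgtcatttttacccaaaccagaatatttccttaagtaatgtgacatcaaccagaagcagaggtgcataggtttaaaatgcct
Gzmf: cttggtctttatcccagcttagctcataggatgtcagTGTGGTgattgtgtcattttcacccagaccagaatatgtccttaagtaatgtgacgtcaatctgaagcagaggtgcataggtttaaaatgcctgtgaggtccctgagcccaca
Gzmg: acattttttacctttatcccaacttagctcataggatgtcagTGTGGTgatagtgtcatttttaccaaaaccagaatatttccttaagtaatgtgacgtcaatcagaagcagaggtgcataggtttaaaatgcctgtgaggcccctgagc

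The windows of Gzmd and Gzme were 94.7% identical and those of Gzmf and Gzmg 87.1%, while Gzmc was 85.2% identical to Gzme. Gzmb matched its 5 neighbours over 44.8% to 51.4% of bases, the lowest values within the block. All 6 windows held TGTGGT, once in each of Gzmc to Gzmg and at 2 places in Gzmb, and only Gzmb among the 6 held TGANTCA. Searched on both strands, TGTGGT was found in 8.61% of 32851 RefSeq promoter windows of the same length, TGANTCA in 4.33%, the T-box motif TCACAC in 7.52% and the STAT5 motif TTCNNNGAA in 4.05%. Gzma and Prf1 each had 1 match to TGTGGT, Gzmk had 2 to TCACAC, and Gzmm had 1 to TTCNNNGAA in 1 of its 2 promoter windows. A match is a run of letters and not a measured binding site.

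The likeness extends to the 3′ ends, where these libraries were read. Of the windows of 50 bases in the last 500 bases of the transcript, 20.4% in Gzmd, 18.2% in Gzme, 7.10% in Gzmf and 14% in Gzmg were shared letter for letter with another granzyme gene. For Gzma, Gzmb, Gzmc, Gzmk, Gzmm and Prf1 that share was 0. Counts split among Gzmd, Gzme, Gzmf and Gzmg are therefore less certain than their sum, which is given below beside the single genes.

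NK-gated cells had the most Gzma, Gzmb and Prf1 per UMI, and CD8 T cells supplied over 50% of the UMIs of Prf1, Gzmk, Gzmd, Gzme, Gzmf and Gzmg. Over the 4 libraries, 77.0% of the 72534 Gzma UMIs came from NK-gated cells and 10.4% from CD8 T cells. Gzmb was divided between them, with 48.9% of 36800 UMIs from CD8 T cells and 37.6% from NK-gated cells, and so was Prf1, with 53.0% and 32.5% of 29277 UMIs. CD8 T cells held 89.1% of Gzmd, 81.5% of Gzme, 78.1% of Gzmf and 90.1% of Gzmg UMIs. The combination differed, as its CD4 T cells held 60% of 120 Gzme UMIs and 93.5% of 31 Gzmg UMIs against 39.2% and 3.23% in its CD8 T cells, and the 3 ctrl Gzmf UMIs were all in CD4 T cells. CD8 T cells also held 61.8% of Gzmk UMIs, with 24.4% in CD4 T cells without Foxp3. Gzmc was spread over 3 kinds of lymphocyte, with 36.5% in CD4 T cells, 20.1% in CD8 T cells and 19.5% in NK-gated cells. Cells that no gate named held 10.1% of Gzma, 9.49% of Gzmb, 7.72% of Prf1 and 16.4% of Gzmc UMIs. In ctrl they held 47.7% of 216 Gzmc UMIs, with 8.80% in neutrophils and 9.72% in monocytes and macrophages.

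**Figure D1:**
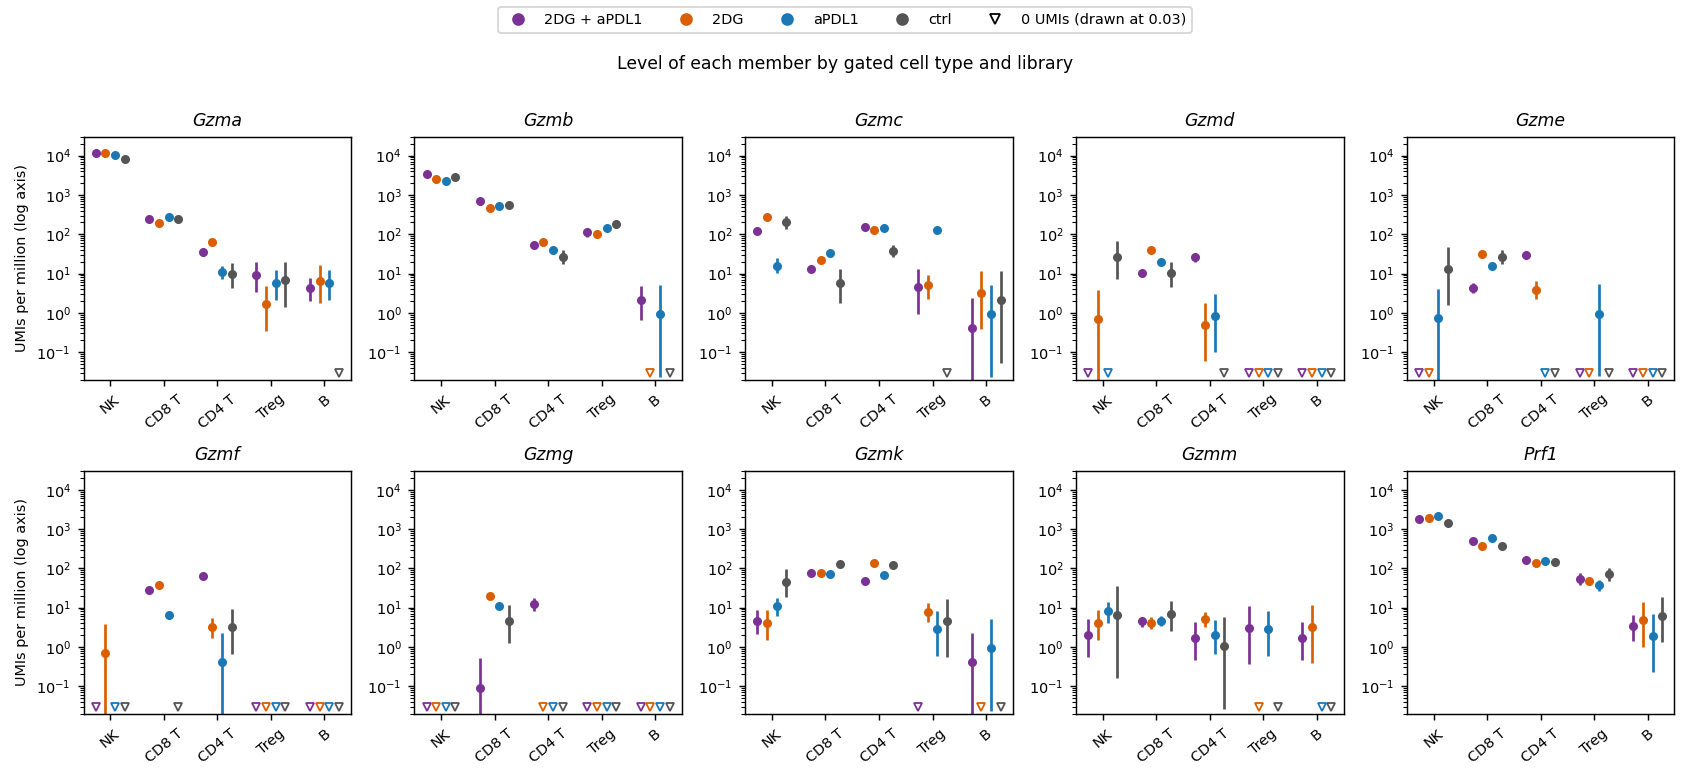
Levels of the 10 genes in UMIs per 1000000 (log axis) by marker-gated cell type, with 1 point per library in the order combination, 2DG, aPDL1 and ctrl, bars for exact 95% Poisson intervals, and open triangles at the foot of the axis for 0 UMIs. Gzma, Gzmb and Prf1 are highest in NK-gated cells in every library, Gzmk is highest in T cells, and the ctrl points of lymphocytes rest on 118 CD8 T cells and 23 NK-gated cells.

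B cells gave the level that RNA free in the droplets can produce. In B cells, Gzma had a UMI in 2.32% of cells of the combination, 2.63% with 2DG, 2.86% with aPDL1 and 0% of 65 cells in ctrl, which at 0 allows up to 4.62% (3 of 65), at 4.17, 6.40, 5.63 and 0 CPM and median depths of 4720, 4938, 4458.5 and 5435 UMIs per cell. The shares for Gzmb were 1.16%, 0% (of 114 cells, which allows up to 2.63%), 0.476% and 0%, and those for Prf1 1.62%, 2.63%, 0.952% and 3.08%. Pooled over libraries, regulatory T cells had a Gzma UMI in 2.45% of cells against 2.32% of B cells, which is read as background. The shares of Gzma, Gzmb and Prf1 in CD8 T and NK-gated cells given below lay above these values in every library.

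Prf1, the pore former, was in most NK-gated cells and in most CD8 T cells of all 4 libraries. In NK-gated cells it had 1796 CPM in the combination (interval 1738 to 1856), 1949 for 2DG (1878 to 2022), 2102 for aPDL1 (2026 to 2180) and 1423 in ctrl (1241 to 1625), with a UMI in 93.3%, 93.1%, 91.6% and 91.3% of cells. The ctrl interval lay below the other 3. In CD8 T cells it had 486 CPM in the combination (473 to 499), 381 for 2DG (369 to 394), 604 for aPDL1 (589 to 619) and 378 in ctrl (339 to 421). The aPDL1 library was highest and the combination next, while the intervals of 2DG and ctrl overlapped. As a ratio, aPDL1 was 1.60-fold ctrl (1.43 to 1.79), the combination 1.28-fold ctrl (1.15 to 1.44) and 2DG 1.01-fold ctrl (0.900 to 1.13). The combination lay at 1.27-fold 2DG (1.22 to 1.33) and at 0.804-fold aPDL1 (0.775 to 0.834). Conventional CD4 T cells had 160, 135, 156 and 147 CPM of Prf1 in the same order of libraries, and their intervals overlapped.

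Gzmb, the caspase-activating granzyme, was highest in the combination in both CD8 T and NK-gated cells. In CD8 T cells it had 703 CPM in the combination (688 to 719), 456 for 2DG (443 to 470), 535 for aPDL1 (521 to 549) and 546 in ctrl (498 to 597). The interval of the combination was above the other 3, 2DG was lowest, and aPDL1 and ctrl overlapped. The combination was 1.54-fold 2DG (1.48 to 1.60), 1.31-fold aPDL1 (1.27 to 1.36) and 1.29-fold ctrl (1.18 to 1.42). Cells with a Gzmb UMI made up 53.9% of CD8 T cells in the combination, 42.5% with 2DG, 49.1% with aPDL1 and 39.8% in ctrl. After each cell was thinned to 2000 UMIs, to take out depth, these shares were 40.1%, 27.8%, 33.9% and 31.5%, and the combination was still highest. In NK-gated cells Gzmb had 3350 CPM in the combination (3270 to 3432), 2530 for 2DG (2449 to 2613), 2231 for aPDL1 (2153 to 2312) and 2801 in ctrl (2543 to 3079), a ratio of 1.5 for the combination over aPDL1 (1.44 to 1.57).

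Outside CD8 T and NK-gated cells, Gzmb was found in regulatory T cells, the Foxp3 population in which granzyme B is one of the known effector molecules. Its level there was 112 CPM in the combination (87.7 to 140.2), 99.9 for 2DG (85.9 to 116), 146 for aPDL1 (124 to 171) and 186 in ctrl (148 to 231), in 20.5%, 23.6%, 25.5% and 21.2% of cells. Here ctrl was highest and its interval overlapped that of aPDL1. Regulatory T cells had 54.3, 48.0, 38.2 and 71.2 CPM of Prf1 in the same order. Both ctrl levels leaned on 1 cell. Without the top cell of each library, 5 of 31 ctrl Prf1 UMIs were left, and the log2 ratios of Prf1 over ctrl were 1.87 for the combination, 1.64 for 2DG and 1.06 for aPDL1, against -0.39, -0.58 and -0.90 with it. Those of Gzmb were -0.49, -0.48 and 0.06, against -0.74, -0.90 and -0.35.

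Gzma was an NK gene in these cells and was in a minority of CD8 T cells. In NK-gated cells it had 11504 CPM in the combination (11355 to 11654), 11746 for 2DG (11571 to 11923), 10671 for aPDL1 (10499 to 10845) and 8274 in ctrl (7826 to 8742), with a UMI in 92.8%, 96.0%, 92.7% and 87.0% of cells. The combination and 2DG overlapped at the top, and ctrl, from 23 cells, was below the rest. Its level in CD8 T cells was 243 CPM in the combination (234 to 253), 189 for 2DG (180 to 198), 280 for aPDL1 (270 to 291) and 248 in ctrl (217 to 283), and only 2DG lay below the ctrl interval. The shares of CD8 T cells with a Gzma UMI ran differently, at 14.9%, 8.74%, 16.8% and 5.93%, and at 10.5%, 6.48%, 12.3% and 5.41% after thinning.

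The ctrl level of Gzma in CD8 T cells leaned on single cells. Of its 221 UMIs, 97 were in 1 of 118 cells. When the cell with the most UMIs of the gene was left out of each library, an alternative chosen after the data were seen, the log2 ratio over ctrl was 0.72 for the combination, 0.32 for 2DG and 0.93 for aPDL1, against -0.03, -0.40 and 0.17 with that cell in. Gamma-delta T cells numbered 23, 33, 9 and 10 in the libraries, and Gzma was at 1669, 1767 and 2247 CPM in the 3 treated ones. In ctrl, 1 UMI was counted. Pooled over libraries, 16 of 75 gamma-delta T cells had a Gzma UMI.

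Gzmk, the granzyme of memory-like T cells, was the member whose level in CD8 T cells was highest in ctrl with the signal spread over many cells. It had 78 CPM in the combination (72.8 to 83.4), 78.1 for 2DG (72.5 to 84.0), 72.1 for aPDL1 (67.1 to 77.4) and 128 in ctrl (106 to 154). The 3 treated libraries overlapped and all lay below ctrl, at ratios of 0.609 (0.5 to 0.747), 0.610 (0.5 to 0.750) and 0.563 (0.462 to 0.692). The share of CD8 T cells with a Gzmk UMI was 30.6%, 31.5%, 30.4% and 35.6%, with a ctrl interval of 27.0 to 44.9 that holds the other 3 values. Without the top cell of each library the log2 ratios over ctrl were -0.59 for the combination, -0.58 for 2DG and -0.69 for aPDL1, which for 2DG is inside 1.5-fold. CD4 T cells ordered the libraries in another way, at 48.0 CPM in the combination (39.7 to 57.7), 139 for 2DG (128 to 151), 66.3 for aPDL1 (56.5 to 77.3) and 122 in ctrl (100.3 to 146). In these cells both libraries with aPDL1 lay below both without it, and the thinned shares of 6.68%, 23.3%, 9.14% and 22.0% had the same order. NK-gated cells had 9, 6, 15 and 7 Gzmk UMIs.

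**Figure D2:**
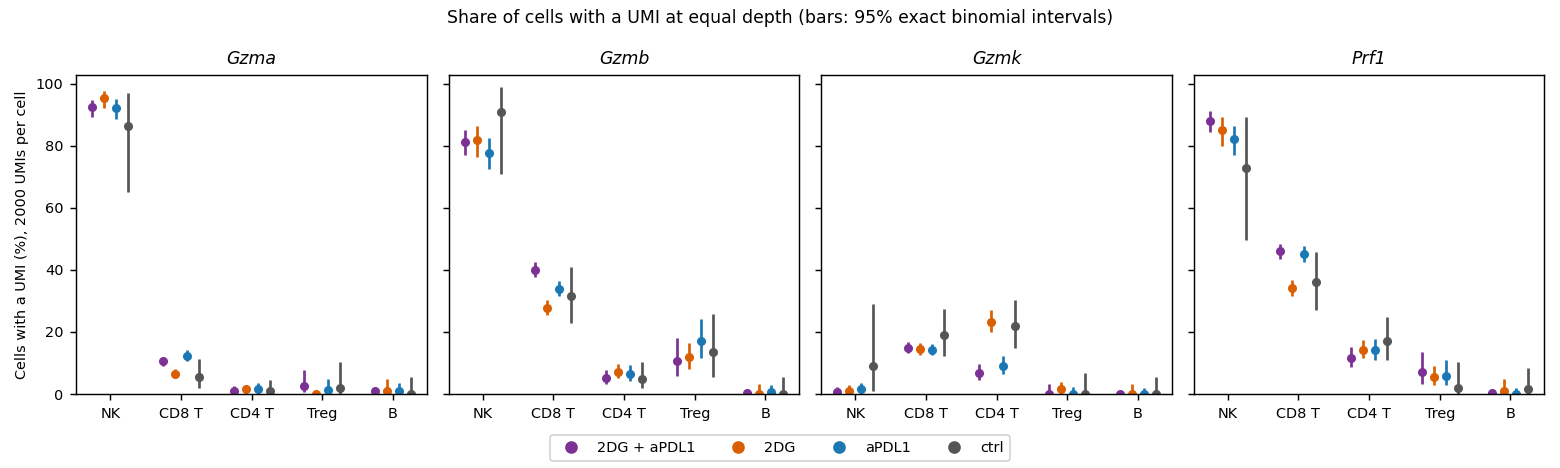
Share of cells with at least 1 UMI of Gzma, Gzmb, Gzmk or Prf1 (percent, cells thinned to 2000 UMIs) by gated cell type, with 1 point per library from combination to ctrl and bars for exact 95% binomial intervals. In CD8 T cells Gzmb reaches 40.1% in the combination against 31.5% in ctrl, and in CD4 T cells Gzmk separates 6.68% and 9.14% in the combination and aPDL1 from 23.3% and 22.0% in 2DG and ctrl.

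Gzmc came from small numbers of cells in each lymphocyte class, and its libraries ordered differently by class. CD8 T cells had 144 UMIs in 36 cells of the combination, 200 in 38 cells with 2DG, 358 in 59 cells with aPDL1 and 5 in 4 cells of ctrl, which is 13.2, 21.7, 34.1 and 5.62 CPM. NK-gated cells had 241 UMIs in 21 cells of the combination, 391 in 22 with 2DG, 22 in 9 with aPDL1 and 31 in 3 of ctrl, which is 121, 268, 16 and 201 CPM. The aPDL1 library was thus highest in CD8 T cells and lowest in NK-gated cells. In CD8 T cells aPDL1 was 6.06-fold ctrl (2.57 to 18.8), and in NK-gated cells it was 0.0795-fold (0.0439 to 0.142). One NK-gated cell held 109 of the UMIs in the combination and 1 held 102 with 2DG.

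Pooled over libraries, CD4 T cells held the largest part of the Gzmc UMIs, at 150, 131, 142 and 37.3 CPM. The level was higher in NK-gated cells with 2DG (268 CPM) and in ctrl (201 CPM). With aPDL1, CD8 T cells held 30.9% of the Gzmc UMIs and CD4 T cells 30.1%. The CD4 T UMIs were in 16 cells of the combination, 29 with 2DG, 19 with aPDL1 and 4 of ctrl. In all, 68 of 1522 CD4 T cells had any, and 8 cells held at least 50% of the 1281 UMIs. The shares of 3.89%, 5.02%, 4.67% and 3.17% differed less than the levels. In regulatory T cells the 136 UMIs counted with aPDL1 were in 4 cells, 105 of them in 1.

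Most UMIs of Gzmd, Gzme, Gzmf and Gzmg came from a handful of CD8 T cells. Among 4661 CD8 T cells of the 4 libraries, Gzmd had 692 UMIs in 29 cells, Gzme 519 in 27, Gzmf 734 in 31 and Gzmg 301 in 11. At least 50% of the UMIs lay in 4, 4, 2 and 3 cells in the same order of genes. For Prf1 the same share took 420 cells, for Gzmk 388, for Gzmb 265 and for Gzma 74. The 10 cells with the most UMIs held 84.7% of Gzmd, 81.7% of Gzme, 87.2% of Gzmf and 99.7% of Gzmg, against 3.83% of Prf1 and 6.19% of Gzmb.

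**Figure D3:**
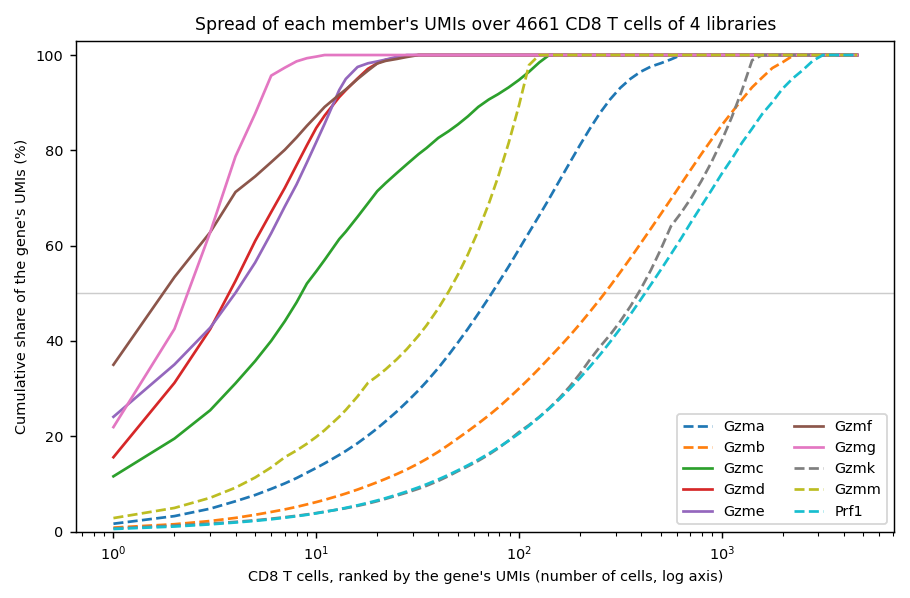
Cumulative share of each gene's UMIs (vertical, percent) against the number of CD8 T cells, ranked from the most to the fewest UMIs of that gene (horizontal, log scale), over 4661 cells of 4 libraries. Gzmd, Gzme, Gzmf and Gzmg reach 50% within 4 cells, Gzmc within 9, and Prf1 only at 420.

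Those cells were in part the same for the 4 genes. Any of Gzmd to Gzmg was found in 54 CD8 T cells, of which 29 had UMIs of 1 gene, 11 of 2, 9 of 3 and 5 of all 4, and 5 cells held at least 50% of the 2246 UMIs. The top cell, from the 2DG library, had 29 Gzmd, 29 Gzme, 257 Gzmf and 62 Gzmg UMIs among 18882, with 57 of Gzmb, 28 of Gzmc and 33 of Prf1. A second 2DG cell had 108 Gzmd and 125 Gzme UMIs but 0 of Gzmf and 2 of Gzmg, so the genes were not in 1 fixed ratio. Another had 108, 33, 7 and 66, and the fourth by total, from aPDL1, had 58, 57, 22 and 61. The top 5 cells, 4 from 2DG and 1 from aPDL1, had no Gzma UMI.

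The cells with any of Gzmd to Gzmg also differed in other readouts, given as description since the 54 cells share libraries and depth. A Gzmc UMI was in 48.1% of them against 2.41% of the other CD8 T cells, a Gzmb UMI in 92.6% against 48.2%, and a Prf1 UMI in 98.1% against 64.0%. The checkpoint gate (Pdcd1 with Havcr2 or Lag3) held 85.2% of them and 49.0% of all CD8 T cells, and the cycling gate held 46.3% against 22.1%. Their median depth was 10474.5 UMIs against 6034, which raises the chance of a UMI for every gene, and its part in these shares was not tested.

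By library the cells with any of the 4 genes were similarly rare, while the levels were far apart. They numbered 15 in the combination (0.908% of CD8 T cells, 0.509 to 1.49), 11 in the 2DG library (0.829%, 0.415 to 1.48), 27 in the aPDL1 library (1.73%, 1.14 to 2.50) and 1 in ctrl (0.847%, 0.0215 to 4.63), and the intervals overlapped. The UMIs of the 4 genes in those cells were 476, 1176, 557 and 37, with at least 50% of them in 2, 2, 2 and 1 cells. Thinned to 2000 UMIs, the shares were 0.793%, 0.610%, 1.04% and 0.901%.

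Gene by gene, levels followed these few cells. Gzmd was at 10.4, 39.3, 19.7 and 10.1 CPM, Gzme at 4.30, 30.8, 15.6 and 27.0 and Gzmg at 0.0914, 19.3, 11.2 and 4.49, with 2DG highest in each. All ctrl UMIs of Gzmd, Gzme and Gzmg were in 1 cell. Gzmf had 314 UMIs in 13 cells of the combination, 352 in 7 with 2DG, 68 in 11 with aPDL1 and 0 in ctrl. The 0 of 118 ctrl cells allows a share of cells with a UMI of up to 2.54%. Against a floor of 3 counts in the ctrl library the levels were 8.52-fold, 11.3-fold and 1.92-fold. That floor covers counting error only, and as few cells held most Gzmf UMIs, these ratios are no bound. One 2DG cell held 257 of the 352 Gzmf UMIs, and without the top cell of each library the log2 ratio of the combination over 2DG was 0.66, against -0.41 with it. Outside CD8 T cells, a single CD4 T cell of the combination held 154 of 157 Gzmf UMIs there.

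Gzmm, granzyme M, had few UMIs in every cell type. CD8 T cells had 49, 38, 48 and 6 UMIs in the 4 libraries, at 4.48, 4.13, 4.57 and 6.74 CPM with overlapping intervals, and 21.6% of its 403 UMIs came from monocytes and macrophages. B cells had a Gzmm UMI in 0.928%, 1.75%, 0% and 0% of cells. Pooled over libraries, the share was 0.732% of B cells, at 1.31 CPM from 6 UMIs. It was higher in CD8 T cells (2.47%, 4.47 CPM) and in NK-gated cells (2.22%, 4.43 CPM).

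Across the 10 genes the comparisons were read by counts, with a gene taken as higher or lower at 1.5-fold in log2 ratio with 0.5 added to each count, where the library with more UMIs had at least 20. That library need not be the one with the higher level, and Gzmm counts as lower over ctrl below although ctrl had 6 UMIs and the intervals of its ratios hold 1. Gzmc in the combination over ctrl (0.981 to 7.33) and Gzmg in aPDL1 over ctrl (0.951 to 9.32) count as higher, though their intervals also hold 1. The pairs share libraries, ctrl above all, and are not independent. In CD8 T cells of the combination over 2DG, Gzmb alone of 10 was higher, where 6.68% of all 11548 genes were, and Gzmc, Gzmd, Gzme and Gzmg were lower, where 7.65% were. Over aPDL1, Gzmf alone was higher (6.7% of 11691 genes), at 4.44-fold (3.40 to 5.85), and the same 4 genes were lower (8.65%). Median log2 ratios of the members were -0.21 and -0.26, against -0.04 and -0.08 over all genes tested. The lower ones are genes held by few cells, and so is Gzmf. Its UMIs were in 13 CD8 T cells of the combination, 135 of 314 in 1 of them, and in 11 cells with aPDL1. Without the top cell of each library, the log2 ratio of Gzmf over aPDL1 was 1.89, against 2.14 with it.

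Over ctrl the counts in CD8 T cells went both ways. Of 9 members tested in the combination, Gzmc and Gzmf were higher (13.1% of all genes) and Gzme, Gzmk and Gzmm lower (17.2%), with a median log2 ratio of -0.03 against -0.07 over all genes. With 2DG, Gzmc, Gzmd, Gzmf and Gzmg of 10 were higher (11.4%) and Gzmk and Gzmm lower (12.8%), with medians of 0.09 and -0.03. With aPDL1, Gzmc, Gzmd, Gzmf, Gzmg and Prf1 were higher (13.5%) and Gzme, Gzmk and Gzmm lower (13.6%), with medians of 0.42 and 0.00. Without the top cell of each gene and library, 5 members were higher and 1 lower in the combination over ctrl, 5 were higher and none lower with 2DG, and 7 were higher and 1 lower with aPDL1. Ctrl then had no UMI of Gzmd, Gzme, Gzmf or Gzmg, so where these genes were called higher, the call rests on the 0.5 added. Gzme then stood at 1.89 for the combination over ctrl and at 4.15 for aPDL1 over ctrl, against -2.66 and -0.81 with the cell in, because ctrl had no Gzme UMI left, so these fitted values rest on the 0.5 added and are no bound.

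In NK-gated cells 4 members had enough UMIs, Gzma, Gzmb, Gzmc and Prf1. Over 2DG the combination had 0 higher (9.66% of all genes) and 1 lower (7.77%), Gzmc, at 0.453-fold. Over aPDL1 it had Gzmb and Gzmc higher (9.47%) and 0 lower (9.73%), Gzmc at 7.58-fold (4.90 to 12.3). Over ctrl the combination had 0 higher (19.8%) and 1 lower (22.4%), Gzmc at 0.603-fold, 2DG had 0 higher (18.9%) and 0 lower (17.9%), and aPDL1 had 0 higher (20.5%) and 1 lower (17.5%), again Gzmc. All calls but that of Gzmb were thus of Gzmc, and Gzmb was at the 1.5-fold limit. Against ctrl, Gzma was 1.39-fold in the combination, 1.42-fold with 2DG and 1.29-fold with aPDL1, and Prf1 1.26-fold, 1.37-fold and 1.48-fold, all short of 1.5-fold. With TMM factors, which moved all log2 ratios over ctrl up by 0.20, 0.17 and 0.13, Gzma in the combination and 2DG and Prf1 in 2DG and aPDL1 passed it.

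**Figure D4:**
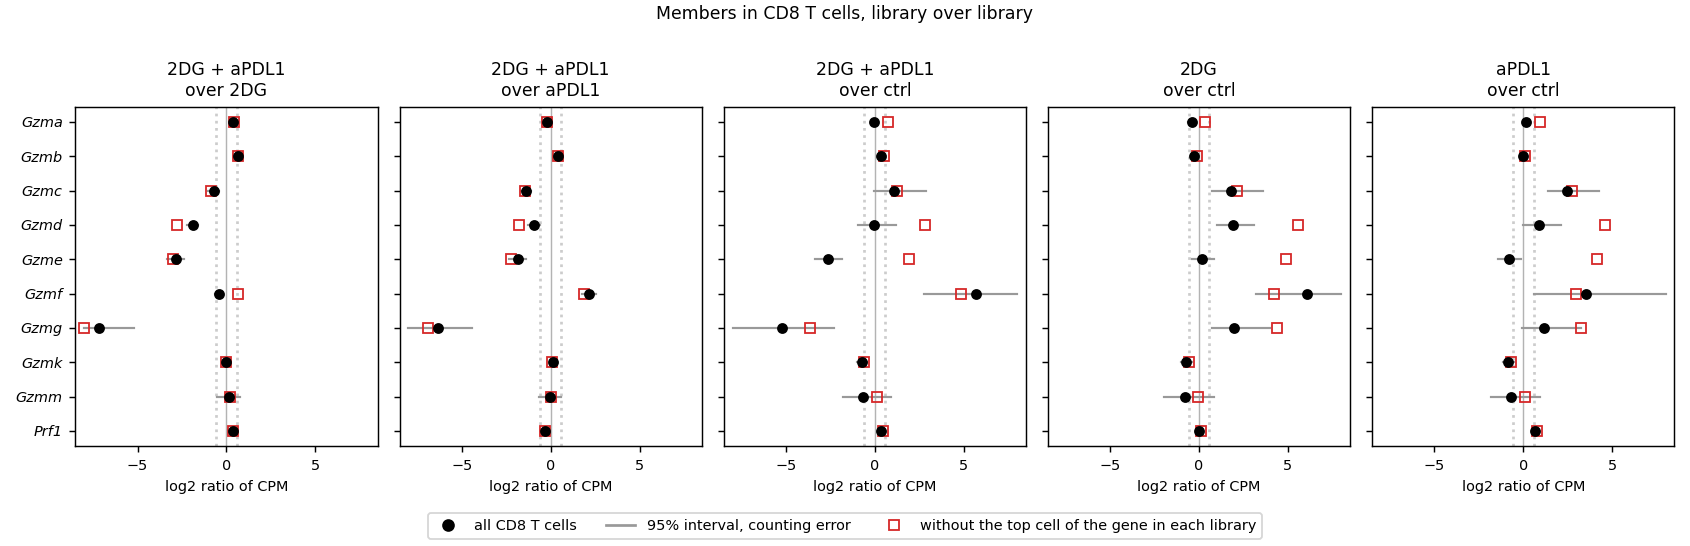
Log2 ratios of CPM of the 10 genes in CD8 T cells for 5 pairs of libraries, the first-named over the second, with filled points for all cells, lines for 95% counting intervals, open squares for values without the top cell of the gene in each library, and dotted lines at 1.5-fold. Gzmb, Gzmk and Prf1 have squares near their points, with Gzmk at -0.72, -0.72 and -0.83 over ctrl, past the dotted line each time, Gzmd to Gzmg spread widely, and values of a gene with 0 UMIs in 1 library rest on the 0.5 added, with lines and points clipped at -8 and 8.

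Within CD8 T cells, the members split by the state of the cell. Cells in the checkpoint gate, 2282 over the 4 libraries, had 698 CPM of Gzmb and 675 of Prf1, against 408 and 258 in the 2379 CD8 T cells outside it. Gzma ran the other way, at 141 CPM in the checkpoint gate and 366 outside it. Gzmk was at 67.9 CPM in the gate and 89.7 outside it. Median depths were 6762.5 UMIs in the checkpoint gate and 5392 outside it. With each cell thinned to 2000 UMIs, Prf1 was detected in 54.9% of cells in the gate and 29.4% outside it, Gzmb in 41.7% and 27.1%, Gzma in 6.78% and 12.8%, and Gzmk in 13.3% and 16.1%.

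The same direction of levels was found in each library for Prf1, Gzmb and Gzma, though for Gzma in ctrl from few cells. Prf1 in the checkpoint gate had 641 CPM in the combination, 543 with 2DG, 809 with aPDL1 and 508 in ctrl, and outside it 264, 236, 278 and 244. Gzmb had 819, 597, 650 and 647 CPM in the checkpoint gate, and 538, 330, 354 and 441 outside it, so the combination was highest on both sides of the gate. For Gzma the checkpoint gate had 101, 110, 203 and 113 CPM. The other CD8 T cells had 445, 259, 403 and 388, higher in each library. In ctrl only 1 cell in the gate and 6 outside it had a Gzma UMI, so ctrl shows no direction by itself. Thinned to 2000 UMIs, the Gzma shares with 2DG were near each other, at 5.69% in the gate and 7.05% outside it. They were 5.67% and 15.9% in the combination, and 8.97% and 16.2% with aPDL1. For Gzmk the checkpoint gate had 65.8 CPM in the combination, 68.7 with 2DG and 63.1 with aPDL1, against 157 in ctrl, and the cells outside it had 95.2, 86.5, 86.4 and 98.3, so ctrl alone was higher in the gate, from 51 cells. The checkpoint gate held 52.4% of CD8 T cells in the combination, 41.3% with 2DG, 52.2% with aPDL1 and 43.2% in ctrl. Within the gate the order of libraries for Prf1 was the same as in all CD8 T cells, and for Gzmb the combination was again highest and 2DG lowest. Cells in the cycling gate had 706 CPM of Gzmb and 170 of Gzma, against 510 and 271 in CD8 T cells outside it. In ctrl Gzma ran the other way, at 339 CPM in the cycling gate and 204 outside it, from 2 and 5 cells with a UMI.

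**Figure D5:**
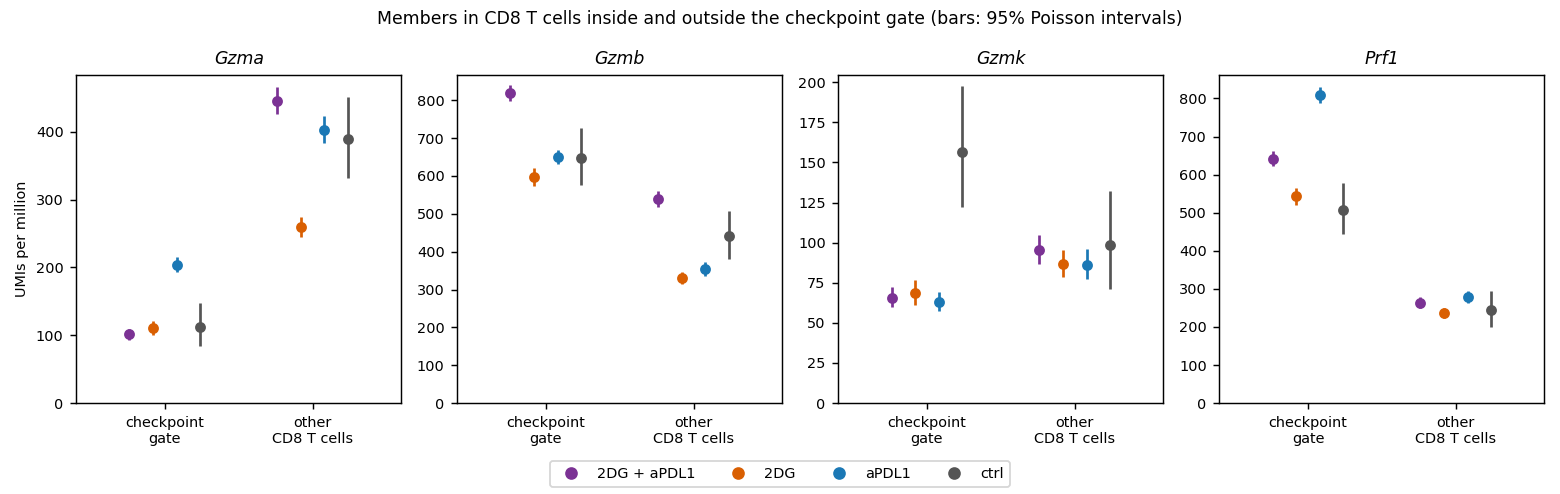
Levels in CPM of Gzma, Gzmb, Gzmk and Prf1 in CD8 T cells inside the checkpoint gate and in the other CD8 T cells, with 1 point per library from combination to ctrl and bars for exact 95% Poisson intervals. Prf1 and Gzmb are higher in the checkpoint gate in all 4 libraries. Gzma is lower there in all 4, in ctrl from 1 cell with a UMI in the gate and 6 outside it.

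Pairs of members were found together in single cells to different degrees. With each CD8 T cell thinned to 2000 UMIs (4594 cells), Gzmb was detected in 61.9% of cells with Gzma and in 31.3% of those without. By library these shares were 65.1% and 37.2% in the combination, 65.9% and 25.1% with 2DG, and 56.1% and 30.8% with aPDL1, while ctrl had 6 cells with Gzma. Prf1 was detected in 57.1% of cells with Gzmb and in 34.2% of those without, and in 44.7% of cells with Gzma against 41.7% without. Cells with Gzmk had Prf1 in 39.3% against 42.5%. Pooled over the 4 libraries, Gzma thus went with Gzmb more than with Prf1, and the share with Prf1 differed little between cells with and without Gzmk.

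The rest of the pathway was read from 4 lists in CD8 T cells, by the same 1.5-fold rule and against the same shares of all genes as above. Of 17 genes of granule cargo and biogenesis, such as the cargo proteoglycan Srgn and the docking factor Unc13d, 1 was higher and 0 lower in the combination over 2DG, 2 and 0 over aPDL1 and 1 and 1 over ctrl, 0 and 2 with 2DG over ctrl and 0 and 1 with aPDL1 over ctrl. Median log2 ratios of these genes lay between -0.13 and 0.06, against -0.08 to 0.00 over all genes. Of 6 serpins that inhibit granzymes or other proteases, 4 were higher and 1 lower in the combination over 2DG, 2 and 0 over aPDL1 and 1 and 1 over ctrl, 0 and 0 of 4 tested with 2DG over ctrl and 1 and 2 with aPDL1 over ctrl. Their median log2 ratio was 1.0 for the combination over 2DG, against -0.04 over all genes. In the other pairs it was 0.07 over aPDL1 and 0.09 over ctrl, -0.22 with 2DG over ctrl and 0.11 with aPDL1 over ctrl. Among the serpins higher over 2DG, Serpinb9b had 31 UMIs against 11 and Serpinb1a 45 against 8. The 10 other effector genes, such as Ifng, Fasl and the chemokine genes, had 2 higher and 1 lower in the combination over 2DG, 2 and 0 over aPDL1 and 5 and 0 over ctrl, 5 and 0 with 2DG over ctrl and 4 and 0 with aPDL1 over ctrl. Their medians over ctrl were 0.47 in the combination, 0.62 with 2DG and 0.49 with aPDL1, and those of the combination were 0.07 over 2DG and 0.01 over aPDL1. Of 20 regulators, 6 were higher and 2 lower in the combination over 2DG, 4 and 1 over aPDL1 and 8 and 2 of 19 tested over ctrl, 0 and 1 with 2DG over ctrl and 2 and 3 with aPDL1 over ctrl. Median log2 ratios of the regulators were 0.34, 0.23, 0.56, 0.07 and 0.17 in the same order of pairs.

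By the rule for naming genes, at least 1.5-fold the same way in both pairs, 7 genes of these lists qualified. The share of all genes that pass in both pairs was not taken, so this number is no result about the lists. The chemokine genes Ccl3 and Ccl4 were higher in both pairs that differ by 2DG, with Ccl3 at 674 CPM in the combination, 362 with 2DG, 361 with aPDL1 and 161 in ctrl, and Ccl4 at 2072, 1264, 1146 and 791. Ccl3 was also higher in both pairs that differ by aPDL1. So was Il2ra, the IL-2 receptor alpha chain, at 89.9, 49.6, 67.7 and 39.3 CPM, from 35 UMIs in ctrl. Serpinb9, the intracellular inhibitor of granzyme B, was likewise higher in both, at 149, 61.6, 99.2 and 64.0 CPM, from 57 UMIs in ctrl. Lower in both aPDL1 pairs were Eomes, a T-box factor of memory and exhausted CD8 T cells, at 87.4, 152, 86.5 and 147 CPM, and the serpin gene Serpina3g at 69.4, 107, 84.1 and 138. Id3, a factor of memory precursors, was at 1.46, 3.15, 2.57 and 3.37 CPM, also lower in both aPDL1 pairs, but from 3 UMIs in ctrl.

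The 3 genes whose levels ran closest to 5 of the members over 39 sums of cell type by library are given as description, over points that share libraries and depth. Closest to Prf1 were Nkg7, Adamts14 and Ms4a4b, with Pearson r of 0.94, 0.93 and 0.93 on log2(CPM + 1) among 14406 genes. Gzmb was closest to Adamts14, Cldnd2 and Gm11769 (0.91, 0.90 and 0.90), and Gzma to Klra7, Kcnj8 and Chsy1 (0.92 each). Gzmk was closest to Apol7e, Eomes and Cd96 (0.91, 0.90 and 0.89). For Gzmf no gene came as near, with Gm26614, Slc17a6 and Osr2 at 0.81, 0.81 and 0.78.

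Taken over all cells of a library, every member was higher in the 3 treated libraries than in ctrl. Gzma had 522 CPM in the combination, 407 with 2DG, 362 with aPDL1 and 27.2 in ctrl, Gzmb 290, 178, 181 and 17.8, and Prf1 182, 145, 193 and 12.5. All 10 were past 1.5-fold in each treated library, where 29.5% of all genes were in the combination, 36.2% with 2DG and 34.7% with aPDL1, with median log2 ratios of 3.05, 3.59 and 3.54 against 0.28, 0.37 and 0.35 over all genes. CD8 T and NK-gated cells, the main sources of these UMIs, made up the smaller shares of ctrl cells given above, and within CD8 T cells 2, 4 and 5 members were higher over ctrl.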

How the data were processed

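The data were 4 droplet single-cell libraries of mouse cells (lymph node per the labels, Chromium 3′ chemistry), 1 per treatment. The deposited matrices held raw UMI counts per gene and barcode, with no normalization per the file headers. The headers name Cell Ranger 7.0.0, and the submitters' processing notes name Cell Ranger 3.1.0 and build mm10. The sources used here do not say if intronic reads entered the counts.

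Barcodes numbered 9948 in the combination, 8701 with 2DG, 9764 with aPDL1 and 9655 in ctrl. Cells needed 500 or more detected genes and a mitochondrial share of UMIs no higher than 10%. Scrublet (scanpy 1.11.5) scored doublets, and the top 0.8% per 1000 barcodes were removed (740, 553, 706 and 702 cells). Cell types were gated on UMIs of marker genes: CD8 T cells had at least 2 Cd3d, Cd3e or Cd3g UMIs, at least 1 of Cd8a or Cd8b1 and none of Cd4, NK-gated cells at least 2 of Ncr1 or Klrb1c, and B cells at least 3 of their markers. The cycling gate took 2 UMIs of Mki67, Top2a, Birc5, Ccnb2 and Cdk1.

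UMIs were summed per cell type and library and given as CPM, and each molecule is counted once whatever its length. Log2 ratios used counts plus 0.5. Shares were also taken after thinning cells to 2000 UMIs, which left out shallower cells. The ratio step was checked on simulated Poisson counts, with changes only in genes expected at 20 or more UMIs in both libraries. That check does not cover genes held by few cells, such as Gzmd to Gzmg, or low counts in ctrl. Members were always named; pathway genes were named at 1.5-fold the same way in both pairs of 2DG or of aPDL1, with 20 UMIs in the library with more UMIs and up to 5 per direction, and the 3 genes closest to 5 members by Pearson r over sums of at least 50000 UMIs. The members and the gene lists were chosen with earlier results of these data known. Alternatives covered the gates, Leiden clusters in place of gates, doublets, the gene minimum, TMM factors (edgeR 4.0.16), cell weighting, leaving out top cells, CD8 states, the UMI minimum and the fold. Python 3.11.15, numpy 2.4.6, scipy 1.17.1, pandas 2.3.3 and R 4.3.3 were used.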

Additional observations from a re-analysis of the deposited data

Results flagged for a closer look

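Gzmc, a granzyme of the chromosome 14 block, differed between CD8 T cells and NK-gated cells in 3 pairs of libraries, with the ratio above 1 in 1 cell type and below 1 in the other. For the combination over aPDL1 the log2 ratio was -1.37 in CD8 T cells and 2.89 in NK-gated cells, a difference of -4.26. For the combination over ctrl it was 1.10 in CD8 T cells and -0.75 in NK-gated cells, a difference of 1.85. As a fold, the interval in CD8 T cells for that pair was 0.981 to 7.33 and holds 1. Its sign turned outside the cycling gate and with each cell weighted alike. For aPDL1 over ctrl the log2 ratio was 2.46 in CD8 T cells and -3.64 in NK-gated cells, a difference of 6.11. These differences were not tested, since each group is 1 library. In ctrl the UMIs came from 4 CD8 T cells and 3 NK-gated cells, and in NK-gated cells 1 cell held 109 of 241 UMIs in the combination.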

How the results depend on the processing

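No paired analysis was possible because each group is 1 library. Each alternative below changed 1 choice, and the value as reported follows after "against". Where the sign of a CD8 T log2 ratio past 1.5-fold turned, the gene was Gzmc, Gzme, Gzmg or Gzmm. Without the top cell, an alternative chosen after the data were seen, ratios inside 1.5-fold turned too, among them Gzma over ctrl, at 0.72 against -0.03 in the combination and 0.32 against -0.40 with 2DG, and Gzmb in aPDL1 over ctrl, at 0.12 against -0.03. Without the 1% of cells with the most member UMIs, Gzmc in the combination over 2DG was 0.21 against -0.72, Gzmg in the same pair 1.33 against -7.14, Gzme in the combination over ctrl 0.43 against -2.66, Gzme in aPDL1 over ctrl 2.47 against -0.81 and Gzmg in 2DG over ctrl -3.40 against 1.94. Outside the cycling gate, the combination over ctrl had -0.22 against 1.10 for Gzmc and 2.73 for Gzme, Gzmg in 2DG over ctrl was -1.01 and Gzme in aPDL1 over ctrl 3.82. With each cell weighted alike, Gzmc in the combination over ctrl was -0.25 and Gzme in aPDL1 over ctrl 0.70. Stricter gates gave Gzme 2.74 in the combination over ctrl and 4.64 in aPDL1 over ctrl. Without the top cell, Gzme was at 1.89 and 4.15, and Gzmm at 0.13 against -0.69 in the combination over ctrl and at 0.10 against -0.66 in aPDL1 over ctrl.

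Counts of members past 1.5-fold are small and moved often. Without the top cell, the higher counts over ctrl in CD8 T cells include genes of Gzmd to Gzmg, of which ctrl then had no UMI. In CD8 T cells, the combination over 2DG had 1 higher, against which stricter gates, the checkpoint gate and a fold of 2 gave 0, and Leiden clusters, cells outside the cycling gate, equal weighting and leaving out the top cell gave 2. In the combination over ctrl, the 2 higher became 4 with stricter gates and outside the cycling gate, and 5 with Leiden clusters and without the top cell. The 3 lower there became 0 without the 1% and 1 outside the cycling gate, without the top cell, with at least 50 UMIs and at a fold of 2. In 2DG over ctrl, the 4 higher became 5 without the top cell, and the 2 lower became 0 with Leiden clusters, without the top cell and at a fold of 2, and 1 without the 1%, in the checkpoint gate and with at least 50 UMIs. In aPDL1 over ctrl, the 5 higher became 7 without the top cell and 3 at a fold of 2, and the 3 lower became 1 with Leiden clusters, without the 1%, outside the cycling gate and without the top cell, and 0 at a fold of 2.

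In NK-gated cells, the 2 higher in the combination over aPDL1 became 1 with stricter gates, Leiden clusters, without the 1%, with equal weighting and at a fold of 2, and 0 without doublet removal, and the 0 lower became 1 with Leiden clusters. In the combination over ctrl, the 0 higher became 1 with TMM factors, equal weighting and without the top cell. The 1 lower there became 0 without doublet removal, without the 1%, with TMM factors and at a fold of 2. In 2DG over ctrl, the 0 higher became 1 without doublet removal and without the 1%, and 2 with TMM factors and without the top cell. In aPDL1 over ctrl, the 0 higher became 1 with Leiden clusters, without the 1%, with TMM factors, with equal weighting and without the top cell, and the 1 lower became 0 with stricter gates, without doublet removal, without the top cell and with at least 50 UMIs, and 2 with Leiden clusters. TMM factors moved all log2 ratios of NK-gated cells over ctrl up by 0.20 in the combination, 0.17 with 2DG and 0.13 with aPDL1, and those of CD8 T cells in the combination over ctrl by 0.12. Requiring 1000 detected genes changed no count and turned no sign.

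With 118 CD8 T cells and 23 NK-gated cells in ctrl, the depth limits every ratio over ctrl, and 1 cell can set the level of Gzmc to Gzmg in any library.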

Other observations

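The NK-gated cells with a Gzmc UMI, 55 over the 4 libraries, were compared with the 874 without one, a comparison chosen after the values were seen. With each cell thinned to 2000 UMIs, Gzma was detected in 63.6% of them (95% interval 49.6 to 76.2) against 94.5% (92.8 to 95.9) of cells without Gzmc. The share of cells with Gzma was 47.6% in the combination, 86.4% with 2DG, 44.4% with aPDL1 and 66.7% in ctrl among those with Gzmc, and 94.5%, 96.0%, 93.6% and 89.5% among those without. Gzmb was detected in 67.3% against 81.1% and Prf1 in 76.4% against 86.2%, and the intervals of each of these pairs overlapped. Eomes, a T-box factor of conventional NK cells that type 1 innate lymphoid cells lack, was detected in 9.09% (3.02 to 19.95) against 27.9% (25.0 to 31.0). By library it was in none of the 21, 9 and 3 cells with Gzmc in the combination, aPDL1 and ctrl. The shares of those without Gzmc were 31.6%, 26.3% and 42.1%. The upper limits of the zeros were 16.1%, 33.6% and 70.8%, so only the zero of the combination lay apart from the share beside it. With 2DG, Eomes was in 22.7% of both. Of the 2 genes that define the gate, Klrb1c, the NK1.1 gene, was detected in 56.4% against 79.7% and Ncr1 in 54.5% (40.6 to 68.0) against 46.2% (42.9 to 49.6), where the intervals overlapped. Tbx21, which both of those cell types have, was detected in 43.6% against 45.8%. The cells share 4 libraries, and the gate does not part the 2 cell types.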
